A study of Mus musculus with 12 samples.

Results

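Hmgcs1, Idi1, Fdps, Sqle, Lss, Dhcr7 and Insig1 were taken by name from the 21936 mouse genes of the deposited table, as genes of sterol synthesis under control of SREBP2, and all 7 members were found and passed the filter on low counts in every comparison. They were followed in liver RNA of 9 libraries from C57BL/6 male mice, 3 in each of the groups LFG, REG and hADMSCs-Exo. The question set by the series is which mRNAs differ between treatments of liver fibrosis. All animals, 6 weeks old on arrival, had received carbon tetrachloride (CCl4), which injures hepatocytes, at 1 mL/kg into the peritoneum 2 times per week for 8 weeks. Mice of the liver fibrosis group (LFG) were killed at that point. In the regression group (REG), 200 µL of phosphate-buffered saline then went into the tail vein over 4 weeks, at 2 injections a week, and mice of the hADMSCs-Exo group were given 250 µg of exosomes in the same volume and on the same schedule. These exosomes are vesicles released by cultured human adipose mesenchymal stem cells. LFG livers were sampled 4 weeks before the others, and in comparisons with LFG that interval cannot be told apart from the treatment. The hADMSCs group and animals without CCl4 were not analysed here.

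Cholesterol is built from acetyl-CoA through mevalonate, isoprenoid pyrophosphates, squalene and lanosterol. When sterols in the endoplasmic reticulum are low, SCAP carries the precursor of the transcription factor SREBP2 to the Golgi, where proteases release the active part that turns on the genes of this route. When sterols are high, INSIG proteins hold SCAP back, and in liver this feedback runs beside SREBP1, the related factor that acts mainly on fatty acid synthesis. Hmgcs1 encodes the cytosolic synthase that forms HMG-CoA, Idi1 the isomerase of isopentenyl pyrophosphate, and Fdps the synthase of farnesyl pyrophosphate. Sqle encodes the epoxidase of squalene, Lss the cyclase that closes the ring to lanosterol, and Dhcr7 a reductase that ends the route at cholesterol. Insig1 encodes one of the INSIG proteins and is itself a target of SREBP.

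Promoter sequence is shown for 3 members because SREBP2 acts there together with NF-Y and Sp1, and because the 3 stand for different results below: a lower mean with overlapping groups (Hmgcs1), groups that did not overlap (Lss), and the feedback gene (Insig1). Each stretch lies upstream of the annotated transcript, on the plus strand of GRCm38.p6, and was taken from RefSeq. They are chr13:119690101-119690350 for Hmgcs1, chr10:76531355-76531587 for Lss and chr5:28071162-28071362 for Insig1. Capitals mark matches, on either strand, to TCACNCCAC (a sterol regulatory element), CCAAT (the NF-Y box) and GGGCGG (the Sp1 box).
Hmgcs1: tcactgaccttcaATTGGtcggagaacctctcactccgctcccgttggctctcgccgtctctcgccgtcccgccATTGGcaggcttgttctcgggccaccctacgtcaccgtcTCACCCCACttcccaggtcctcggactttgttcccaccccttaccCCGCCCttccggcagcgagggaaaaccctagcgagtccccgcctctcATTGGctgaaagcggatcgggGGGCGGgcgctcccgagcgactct
Lss: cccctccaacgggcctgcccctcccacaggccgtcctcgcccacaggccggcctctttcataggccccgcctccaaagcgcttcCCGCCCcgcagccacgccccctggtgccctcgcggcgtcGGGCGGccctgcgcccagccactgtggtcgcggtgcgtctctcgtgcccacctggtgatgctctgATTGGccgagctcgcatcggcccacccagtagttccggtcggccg
Insig1: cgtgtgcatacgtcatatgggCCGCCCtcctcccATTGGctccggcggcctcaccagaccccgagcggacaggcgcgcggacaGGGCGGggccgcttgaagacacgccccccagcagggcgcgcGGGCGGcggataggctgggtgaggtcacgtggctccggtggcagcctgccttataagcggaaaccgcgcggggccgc

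Windows from 250 bases before to 50 after a start site were held for 5 members (7 windows, of which Dhcr7 has 3), and none for Sqle or Fdps. TCACNCCAC was found in 1 of the 7 windows, that of Hmgcs1, where it begins 137 bases before the start site. It occurs in 1.24% of the 32851 windows of all genes. CCAAT was found in 5 of the 7 windows (37.4% of all windows) and GGGCGG in 6 of the 7 (35.7%), each in at least 1 window of all 5 members, no match overlapping another. Dhcr7 has CCAAT only in the one of its 3 windows that starts farthest downstream. These matches describe letters in a window.

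The depth was 13837445 to 19840917 counts per library. Levels are given as CPM, counts per 1000000 counts of the library, after TMM scaling, whose factors ran from 0.808 (LFG 3) to 1.38 (LFG 1). LFG 3 stood apart from LFG 1 and LFG 2: its summed level of 12 stellate cell and myofibroblast markers was 40.2 CPM, against 785.3 and 1274.2 CPM in the other two. All 11 hepatocyte markers in the table were detected in every library, with summed levels of 91368.1 to 187838.7 CPM. Nothing in the labels says that the 3 libraries of a group are separate animals, so p-values measure the spread between libraries.

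Compared per length, as FPKM, the members spanned a wide range of levels. In REG, Insig1 was highest at 136 ± 47.6 FPKM (SD, n = 3 for each mean here), followed by Hmgcs1 at 85.1 ± 16.3 FPKM. Idi1 stood at 34.7 ± 2.02 FPKM, Sqle at 31.1 ± 1.49 FPKM and Dhcr7 at 20.5 ± 3.16 FPKM. Lss had 7.78 ± 0.944 FPKM and Fdps, the lowest, 2.21 ± 0.317 FPKM. Among neighbours in this order the libraries overlapped between Insig1 and Hmgcs1 and between Idi1 and Sqle. In hADMSCs-Exo the order was the same, with Idi1 at 25.3 ± 0.587 and Sqle at 25.0 ± 2.31 FPKM. In LFG, Sqle (25.4 ± 13.1 FPKM) stood before Idi1 (21.3 ± 18.8 FPKM), a difference within their spread. Fdps, whose product feeds every later step, rested on 32 to 198 counts per library. Its level is also uncertain because 26.71% of its exonic bases are shared with Gm43738, a gene model on the same strand that was listed at 0 in every library. Of the stretches of 50 bases in its transcripts, 26.19% occur in other genes, mostly processed pseudogenes. The share was 25.29% for Idi1, again mostly processed pseudogenes, 11.57% for Hmgcs1 and at most 2.17% for the other 4. Exons of Hmgcs1 (12.12% of bases, Gm48342), Idi1 (9.22%, Gm48574) and Lss (3.53%, 4930483K19Rik) face a gene on the opposite strand. The use of strand in the counting is not given in the sources used here, so reads of the 2 strands cannot be told apart.

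**Figure D1:**
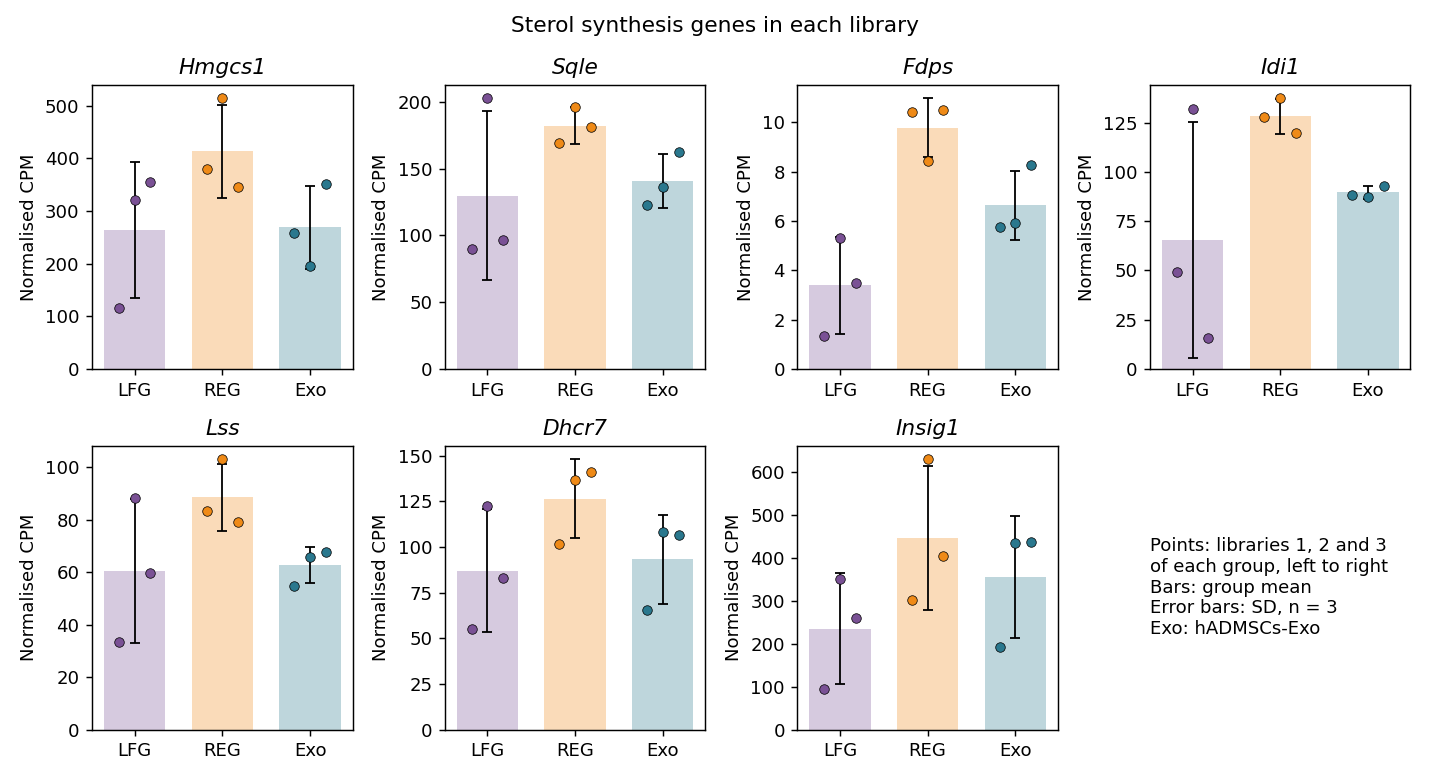
Normalised CPM (vertical axes, from 0) of the 7 members in each library of LFG, REG and hADMSCs-Exo. Points are libraries, bars are group means and error bars are SD (n = 3). For Idi1, Fdps, Sqle and Lss all 3 hADMSCs-Exo points lie under all 3 REG points, and LFG is the most scattered group for all members but Insig1.

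The first comparison asked how livers given exosomes differed from livers left to regress, at the same time after CCl4. All 7 members had a lower mean in hADMSCs-Exo than in REG (48.9% of all genes had a log2 fold change under 0), by 1.25-fold (Insig1) to 1.54-fold (Hmgcs1). No member passed the adjusted threshold (0 of 7, quasi-likelihood test of edgeR, Benjamini-Hochberg adjustment), where 1 gene of 12337 did (0.00811%). At an unadjusted p under 0.05, 5 of 7 were lower, against 4.69% of all genes. In 4 of 7 the groups did not overlap, hADMSCs-Exo being lower, against 7.47% of all genes. Members were chosen with earlier results of these data known and varied together across libraries (median Pearson's r between 2 members of 0.783). These counts therefore do not test the set. The median log2 fold change was -0.50 for the members and 0.008 for all genes tested. A lower level in bulk liver can come from fewer cells of a type or from less RNA per cell, and the 2 cannot be told apart.

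At the head of the route, Hmgcs1 (ENSMUSG00000093930, chromosome 13, 119690379 to 119708260, plus strand; all positions are GRCm38) had 379.9, 513.5 and 346.1 CPM in REG 1, 2 and 3, and 258.2, 195.6 and 352.0 CPM in hADMSCs-Exo. hADMSCs-Exo 3 lay just above REG 3, so the groups overlapped. On the log2 scale the fold change was -0.62 (standard error 0.24, unadjusted p = 0.0320, adjusted p = 0.463). Idi1 (ENSMUSG00000058258, chromosome 13, 8885501 to 8892451, plus strand) had 128.0, 137.4 and 119.6 CPM in REG against 88.6, 87.2 and 93.1 CPM in hADMSCs-Exo. Both groups were tight and clear of each other, with every exosome library under every REG library. The log2 fold change of Idi1 was -0.52 (standard error 0.12, unadjusted p = 0.00204, adjusted p = 0.358). With DESeq2 in place of edgeR it was -0.53 with an adjusted p of 0.0487, under 0.05 but short of the limit of 1 on the log2 fold change, in a fit that took 111 of 12337 genes under an adjusted p of 0.05 and 67 past both thresholds. The adjusted p of Idi1 lay between 0.0487 and 1.00 in the alternatives.

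Fdps (ENSMUSG00000059743, chromosome 3, 89093588 to 89101959, minus strand) had 10.4, 8.4 and 10.5 CPM in REG and 5.7, 5.9 and 8.3 CPM in hADMSCs-Exo. The groups came close, at 8.3 and 8.4 CPM, without overlap. On the log2 scale Fdps differed by -0.56 (standard error 0.22, unadjusted p = 0.0322, adjusted p = 0.463). Sqle (ENSMUSG00000022351, chromosome 15, 59315077 to 59331192, plus strand) had 168.9, 196.3 and 181.0 CPM in REG against 123.1, 136.0 and 162.5 CPM in hADMSCs-Exo, again with no overlap. The log2 fold change of Sqle was -0.37 (standard error 0.15, unadjusted p = 0.0321, adjusted p = 0.463). Lss (ENSMUSG00000033105, chromosome 10, 76531588 to 76557138, plus strand), the gene of the ring closure, had 83.5, 103.1 and 79.2 CPM in REG and 54.9, 65.7 and 67.7 CPM in hADMSCs-Exo. All 3 exosome libraries lay under the lowest REG library. For Lss the log2 fold change was -0.50 (standard error 0.15, unadjusted p = 0.00918, adjusted p = 0.407).

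Dhcr7 (ENSMUSG00000058454, chromosome 7, 143823145 to 143848410, plus strand) had 101.4, 136.5 and 141.0 CPM in REG and 65.2, 107.9 and 106.7 CPM in hADMSCs-Exo. REG 1 lay within the exosome libraries. The log2 fold change was -0.44 (standard error 0.22, unadjusted p = 0.0810, adjusted p = 0.543). Insig1 (ENSMUSG00000045294, chromosome 5, 28071363 to 28078662, plus strand), the feedback gene, spread most: 301.6, 630.5 and 405.8 CPM in REG and 191.7, 436.2 and 438.4 CPM in hADMSCs-Exo. Its groups overlapped, REG 2 being highest and hADMSCs-Exo 1 lowest. On the log2 scale Insig1 differed by -0.32 (standard error 0.36, unadjusted p = 0.394, adjusted p = 0.784), and without REG 2 it was -0.002. Without hADMSCs-Exo 1 it was -0.026, and that of Dhcr7 was -0.24. The count of members at an unadjusted p under 0.05 was 2 without hADMSCs-Exo 1 and without hADMSCs-Exo 2, 3 without REG 2 and without REG 3, and 0 with all 9 libraries in one fit.

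**Figure D2:**
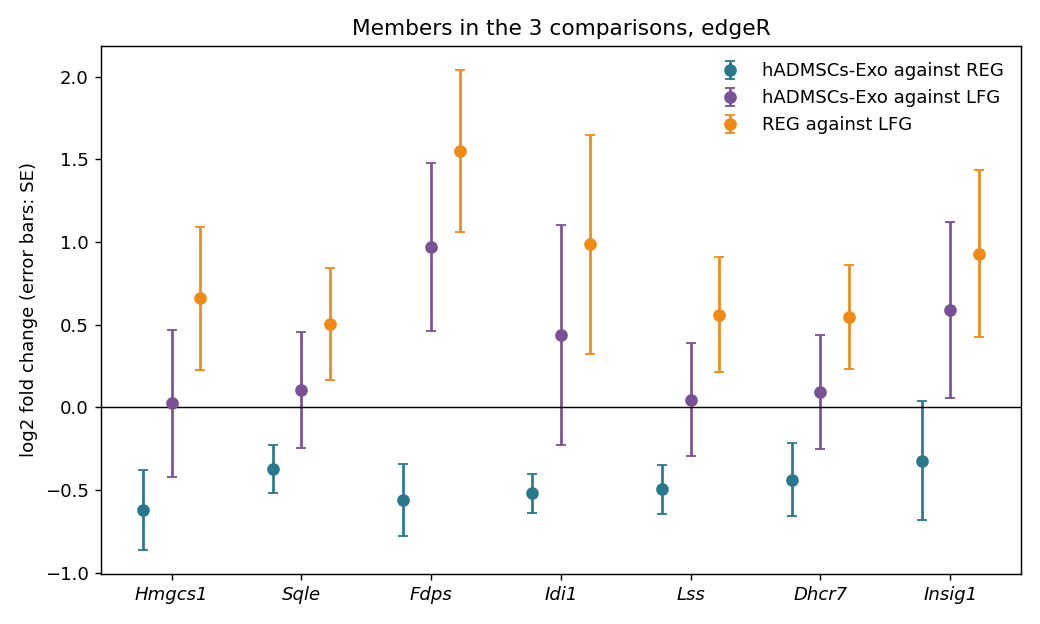
Log2 fold change from edgeR (vertical axis) of each member in the 3 comparisons, with error bars of 1 standard error. Values for hADMSCs-Exo against REG lie between -0.62 and -0.32, those for REG against LFG between 0.50 and 1.55, and those for hADMSCs-Exo against LFG between 0.025 and 0.97, with wider errors in both comparisons with LFG.

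Other genes of the same route had mostly lower means in hADMSCs-Exo, none past the adjusted threshold. Of 14 further sterol synthesis genes tested, 12 had a lower mean and 2 a higher one, with a median log2 fold change of -0.49. An unadjusted p under 0.05 was reached by 6, all lower (4.69% of all genes). In 5 the groups did not overlap, hADMSCs-Exo being lower (7.47% of all genes). Tm7sf2, a sterol reductase, was lower by 1.57-fold, with 192.5, 239.8 and 211.4 CPM in REG and 131.5, 140.8 and 138.7 CPM in hADMSCs-Exo. The difference was -0.65 on the log2 scale (standard error 0.13, unadjusted p = 0.000948, adjusted p = 0.358). The other 5 were Acat2, which condenses acetyl-CoA at the entry of the route (-0.66), Sc5d, a sterol desaturase (-0.61), Pmvk, the phosphomevalonate kinase (-0.60), Nsdhl, a sterol dehydrogenase (-0.55), and Fdft1, squalene synthase (-0.47). Their adjusted p ran from 0.380 (Nsdhl and Acat2) to 0.492 (Fdft1). The count of 6 was 1 with all 9 libraries in one fit and 10 without hADMSCs-Exo 3.

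Genes of sterol sensing and uptake had no common direction. The 20 tested had a median log2 fold change of 0.03, with 11 higher and 9 lower, and 4 reached an unadjusted p under 0.05 (10.0% of all genes in either direction). Insig2, the second INSIG gene, was higher in hADMSCs-Exo, with 89.72, 116.8 and 72.28 CPM against 49.66, 67.31 and 42.0 CPM in REG and no overlap. Its log2 fold change was 0.81 (standard error 0.22, unadjusted p = 0.00626, adjusted p = 0.402), of opposite sign to that of Insig1; the difference between the 2 genes was not tested. Soat1, which esterifies cholesterol, was higher too (0.62, adjusted p = 0.448). Scap, the escort of SREBP (-0.41, adjusted p = 0.432), and Stard4, a carrier of sterols between membranes (-0.48, adjusted p = 0.425), were lower. Of 9 genes under LXR, the receptor of oxysterols, or of sterol efflux, 3 reached an unadjusted p under 0.05. Srebf1, the gene of SREBP1, had 328.7, 501.2 and 559.9 CPM in REG and 215.6, 241.1 and 244.1 CPM in hADMSCs-Exo. Every exosome library was lower (log2 fold change -0.99, standard error 0.20, unadjusted p = 0.00109, adjusted p = 0.358). The cholesterol exporters Abca1 (0.60, adjusted p = 0.407) and Abcg5 (0.41, adjusted p = 0.478) were higher.

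Other values moved with this comparison. The summed level of the hepatocyte markers was 179434.8 to 187838.7 CPM in REG and 138659.6 to 152894.9 CPM in hADMSCs-Exo, without overlap. That gap lay in Alb, at 132114.7 to 139528.2 CPM in REG and 90054.1 to 106968.9 CPM in hADMSCs-Exo, whereas the other 10 markers summed to 46717.2 to 49767.0 and 45926.0 to 49972.7 CPM, which overlap. Alb, the gene of albumin, was lower (-0.44, adjusted p = 0.515), whereas Cyp2e1 (0.67, adjusted p = 0.407) and Hnf4a (0.43, adjusted p = 0.432) were higher, and the median of the 11 genes was -0.052. Of the stellate cell and myofibroblast markers, 6 of 11 tested were lower at an unadjusted p under 0.05 (4.69% of all genes), 1 of 11 with all 9 libraries in one fit, and their sums ran from 151.6 to 258.2 CPM in REG and from 52.1 to 143.2 CPM in hADMSCs-Exo. Tagln, one of these markers, was at 0 counts in all 3 REG libraries. Of the lymphocyte markers, 9 of 10 had a fitted log2 fold change above 0 (median 0.58), 3 were higher at an unadjusted p under 0.05 (5.34% of all genes) and 3 did not overlap between groups. Without REG 3, or with all 9 libraries in one fit, 0 lymphocyte markers reached that p. The fitted log2 fold change was below 0 for 6 of 6 sinusoidal endothelium markers (median -0.69) and 5 of 5 erythroid markers (median -0.72), with 0 of either at an unadjusted p under 0.05. Of 15 clock genes tested, 3 were higher and 2 lower at an unadjusted p under 0.05 (10.0% of all genes in either direction), among them Cry1 (1.65) and Nfil3 (1.17), both higher, and Dbp (-1.09). Without hADMSCs-Exo 1 the clock counts were 5 higher and 5 lower (10.1% of all genes). With all 9 libraries in one fit they were 1 and 1 (3.84%). The hour of sampling is not given in the sources used here. The part of these cell type and clock differences in the members' values was not tested.

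**Figure D3:**
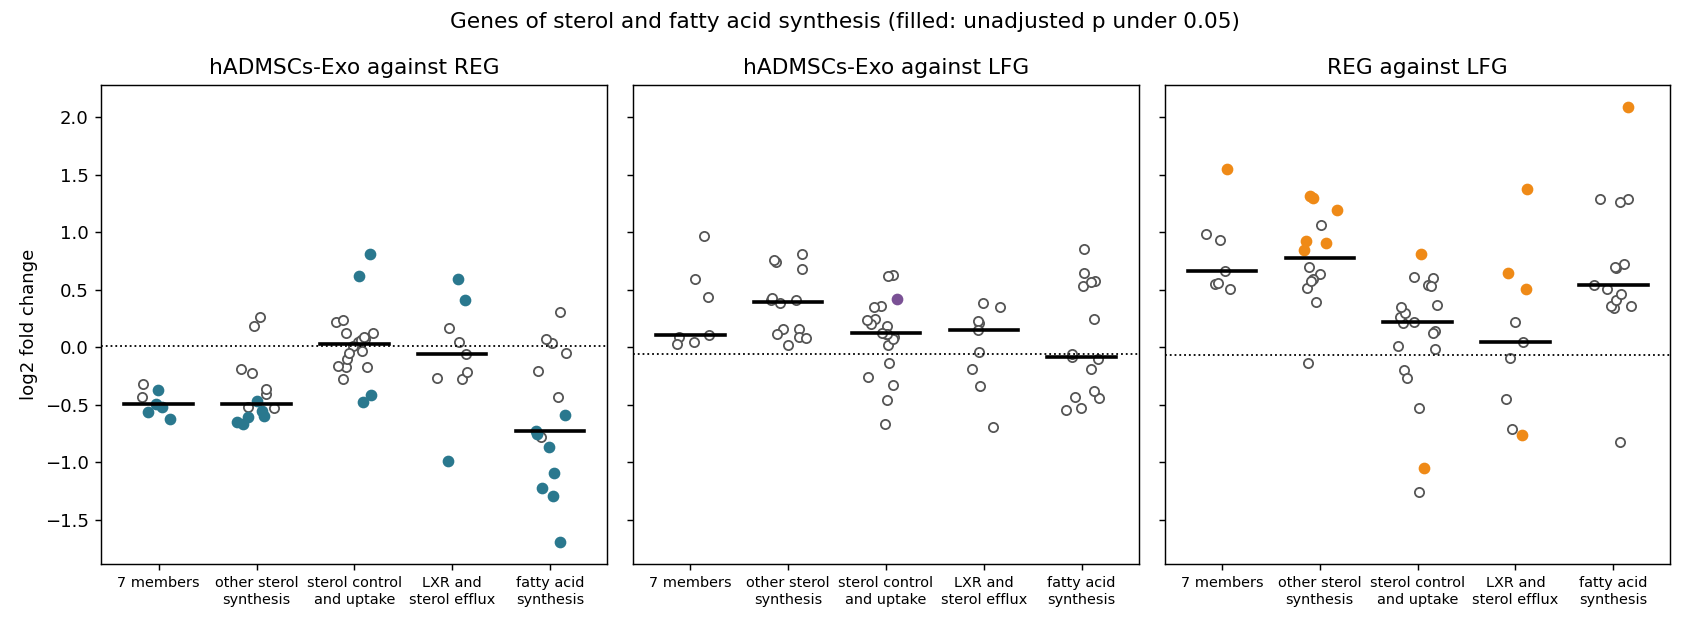
Log2 fold change (vertical axis) of single genes in 5 lists for each comparison. Filled circles have an unadjusted p under 0.05, thick bars are list medians, and the dotted line is the median of all genes tested. In hADMSCs-Exo against REG the members (median -0.50), the other sterol synthesis genes (-0.49) and the fatty acid synthesis genes (-0.73) lie mostly under that line.

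The comparison of REG with LFG asked what 4 weeks without CCl4 went with. It shares the REG libraries with the comparison above, so their values are not independent. All 7 members had a higher mean in REG (44.1% of all genes), with a median log2 fold change of 0.66 against -0.068 for all genes tested. No member passed the adjusted threshold (quasi-likelihood test of edgeR, Benjamini-Hochberg adjustment), as did 0.00% of all genes. That share depended on LFG 3 and on the test: 1391 genes passed both thresholds without that library, where still 0 members did, and on all 6 libraries DESeq2 took 239 genes past them and limma voom with quality weights 1285. Fdps was the 1 member at an unadjusted p under 0.05 and the 1 whose groups did not overlap, where the shares among all genes were 4.62% and 8.89% in the same direction. It had 1.3, 5.3 and 3.5 CPM in LFG, each under the lowest REG library. Its log2 fold change was 1.55 (standard error 0.49, unadjusted p = 0.0161, adjusted p = 0.384). With limma's voom and quality weights it was 1.34 (adjusted p = 0.0494), past both thresholds, in a fit that took 1285 genes past them.

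On the log2 scale LFG had the largest SD of the 3 groups for all 7 members. LFG 1 was the lowest of the 9 libraries for 6 of 7 members, and LFG 3 for Idi1. Hmgcs1 had 115.9, 320.0 and 354.0 CPM in LFG 1, 2 and 3, a range that reached into REG. Idi1 had 49.3, 132.1 and 15.5 CPM, so that LFG 2 lay within REG and LFG 3 far under every other library. Against LFG, Idi1 in REG was higher by 0.99 on the log2 scale (standard error 0.66, adjusted p = 0.599) and ran from 0.55 without LFG 3 to 1.99 without LFG 2. Sqle (90.0, 202.5 and 96.4 CPM), Lss (33.6, 88.5 and 59.7 CPM) and Dhcr7 (55.3, 122.5 and 83.2 CPM) were each highest in LFG 2, where Sqle was above all REG libraries. Their log2 fold changes in REG were 0.50, 0.56 and 0.55. Insig1 had 94.8, 351.1 and 260.2 CPM in LFG, and its mean stood 0.93 higher in REG on the log2 scale (standard error 0.50, adjusted p = 0.518). Without LFG 2, 5 members (Sqle, Fdps, Idi1, Dhcr7 and Lss) had an unadjusted p under 0.05 in place of 1. The median of the members was 0.31 without LFG 1 and 0.59 without LFG 3, and without LFG 3 Fdps was at 1.62 (adjusted p = 0.0633).

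Among the other sterol synthesis genes, 13 of 14 had a higher mean in REG than in LFG, with a median of 0.77. Groups did not overlap in 8, REG being higher (8.89% of all genes), and 6 were higher at an unadjusted p under 0.05 (4.62% of all genes). These 6 were Mvd, the mevalonate diphosphate decarboxylase (1.31), Pmvk (1.298), Msmo1, a sterol oxidase (1.19), Mvk, mevalonate kinase (0.92), Fdft1 (0.91) and Acat2 (0.84). That count was 2 without REG 2 and 3 without REG 3. Mvd had 15.97, 35.56 and 22.99 CPM in LFG and 59.83, 82.09 and 41.46 CPM in REG. All REG libraries were higher (standard error 0.36, adjusted p = 0.333). Insig2 was lower in REG, by -1.05 (standard error 0.33, adjusted p = 0.385), with LFG at 126.2, 140.5 and 64.22 CPM. LFG 3 lay inside the REG range. Srebf1 (1.38), Lpcat3, which remodels phospholipids (0.65), and Nr1h2, an LXR gene (0.51), were higher and Abca1 (-0.77) was lower, with adjusted p between 0.333 and 0.433.

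Cell type and clock markers moved with REG against LFG too. Hepatocyte markers summed to 91368.1, 147378.6 and 166722.9 CPM in LFG 1, 2 and 3, all under the lowest REG sum of 179434.8 CPM. Without Alb the LFG sums were 27073.2, 38902.9 and 64948.1 CPM, around the REG range of 46717.2 to 49767.0 CPM. LFG 1, the lowest library for 6 of 7 members, thus had the lowest hepatocyte sum of the 9, and it had the highest stellate cell and myofibroblast sum, 1274.2 CPM. The fitted log2 fold change was above 0 for 5 of 5 erythroid markers (median 1.70), 5 of 6 sinusoidal endothelium markers (median 0.83) and 8 of 10 lymphocyte markers (median 0.70), and below 0 for 9 of 10 stellate cell and myofibroblast markers (median -0.58). Of these, 0, 1, 1 and 0 had an unadjusted p under 0.05. The last count depended on LFG 3 and on the test. Without LFG 3, 10 of 11 stellate cell and myofibroblast markers were lower at that p (median -1.146, against 19.08% of all genes). The count was 5 of 10 with voom (21.99%), 3 of 10 with DESeq2 (7.893%) and 0 without any other single library. Of 15 clock genes tested, 1 was higher and 4 were lower in REG at an unadjusted p under 0.05 (11.3% of all genes in either direction), among them Cry1 (-1.32) and Per1 (-1.18), both lower, and Per3 (0.84). Without LFG 2 the clock counts were 0 higher and 0 lower (7.13% of all genes). Without LFG 3 they were 7 and 5 (37.3%). The part of these cell type and clock values in the members' differences was not tested.

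Set against LFG, livers given exosomes had member means near or above those of LFG, with wide errors. This comparison shares its libraries with both others. All 7 had a higher mean in hADMSCs-Exo (43.1% of all genes), and the median log2 fold change was 0.11 (all genes -0.059). Here 0 of 7 members passed the adjusted threshold (0.00% of all genes) and 0 of 7 had an unadjusted p under 0.05 (5.98% of all genes, 2.30% being higher), by the quasi-likelihood test of edgeR and Benjamini-Hochberg adjustment. DESeq2 and voom also gave 0 of 7 on both counts. Without LFG 3, 773 genes passed both thresholds and 0 members did, and with DESeq2 60 genes did. Values ran from 0.025 (Hmgcs1, standard error 0.44) to 0.97 (Fdps, standard error 0.51, adjusted p = 0.810). Fdps was the 1 member whose groups did not overlap, hADMSCs-Exo being higher (6.34% of all genes). With the replicate number as a block, 1 member, Insig1, reached an unadjusted p under 0.05, at a log2 fold change of 0.69 in place of 0.59. The median was 0.085 without LFG 3 and changed sign without LFG 1 (-0.093), with voom (-0.12) and with library totals (-0.005). All 14 other sterol synthesis genes had a higher mean in hADMSCs-Exo (median 0.40), and 0 reached an unadjusted p under 0.05. Of the 20 sterol control and uptake genes 1 did, a share no higher than that of all genes: Srebf2, the gene of SREBP2, had 57.6, 68.39 and 60.01 CPM in LFG and 80.19, 82.02 and 88.41 CPM in hADMSCs-Exo, without overlap. On the log2 scale Srebf2 differed by 0.42 (standard error 0.17, unadjusted p = 0.0385, adjusted p = 0.805). Stellate cell and myofibroblast markers had lower means in hADMSCs-Exo than in LFG in 11 of 11 tested (median -1.65, 6 at an unadjusted p under 0.05, against 5.98% of all genes), though LFG 3, at 40.2 CPM, lay under every exosome library in their sum. The count of 6 was 0 with the replicate number as a block, 10 without LFG 3, and 0 to 2 without any other single library. The fitted log2 fold change of 9 of 10 lymphocyte markers was above 0 (median 1.05, and 0.78 without LFG 3). In 6 the groups did not overlap, hADMSCs-Exo being higher (6.34% of all genes). Lymphocyte markers summed to 76.1, 89.3 and 11.6 CPM in LFG 1, 2 and 3 and to 66.7 to 83.5 CPM in hADMSCs-Exo. The part of these cell type markers in the members' values was not tested. Scaling by library totals moved the median of all genes to -0.18 here and to -0.27 in REG against LFG.

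Across the 9 libraries the members tended to be high or low in the same ones. Pearson's r between 2 members, over log2 CPM in 9 libraries that share their scaling, ran from 0.269 to 0.921 over 21 pairs, with a median of 0.783. The mean deviation of the 7 members from their own means was -1.18, 0.30 and -0.58 in LFG 1, 2 and 3, 0.35, 0.67 and 0.45 in REG, and -0.27, 0.01 and 0.25 in hADMSCs-Exo. LFG 1 was under the mean for all 7 members, and REG 2, REG 3 and hADMSCs-Exo 3 were above it for all 7. Summed over members, the level was 1173.7, 1725.6 and 1283.2 CPM in REG and 787.4, 1034.5 and 1228.6 CPM in hADMSCs-Exo. The 2 ranges overlapped in that sum.

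**Figure D4:**
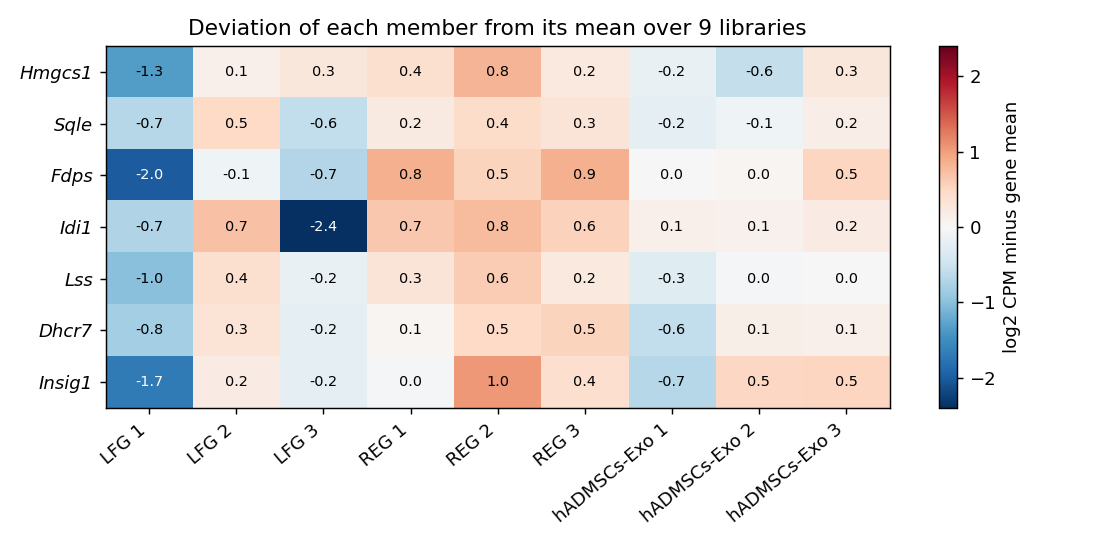
Log2 CPM of each member (rows) in each of 9 libraries (columns) minus that member's mean over the 9; red is above the mean and blue under it. LFG 1 is blue for all 7 members, LFG 3 holds the lowest single value, that of Idi1, and REG 2, REG 3 and hADMSCs-Exo 3 are above the mean for all 7, the last by as little as 0.003.

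Of 12753 genes compared over the 9 libraries, those most like the members' mean pattern were Mvk (r = 0.971), Pyroxd2 (0.956), Acat2 (0.946), Clic5 (0.921), Tifa (0.916), Fdft1 (0.914), Cyb5b (0.912), Sucla2 (0.912) and Ccdc85c (0.911). Mvk, Acat2 and Fdft1 are sterol synthesis genes. Mvk, for one, had 15.127, 41.212 and 28.262 CPM in LFG, 45.901, 63.022 and 49.959 CPM in REG and 27.065, 31.577 and 52.303 CPM in hADMSCs-Exo. It was lowest in LFG 1 and highest in REG 2, like the members' mean. The least like were Igsf11 (-0.962), Rbm19 (-0.929), Rnf41 (-0.922), Hnrnpa2b1 (-0.905) and Ccl2, a chemokine gene (-0.902).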

How the data were processed

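Liver RNA of 9 libraries was analysed. The authors deposited counts of reads per gene, not normalised, and FPKM, the same counts divided by gene length and library total (largest relative difference 9.19e-07). FPKM served only to set levels of different genes side by side. The submitters' processing notes list cutadapt 1.15, HISAT2 2.0.5, HTSeq 0.9.1, DESeq 1.30.0 and GRCm38. The use of strand is not given in the sources used here.

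Counts were tested in R 4.3.3 with the two-sided quasi-likelihood test of edgeR 4.0.16, TMM scaling and edgeR's filter on low counts (12337, 12489 and 12517 genes tested for hADMSCs-Exo against REG, hADMSCs-Exo against LFG and REG against LFG), fitting the 6 libraries of each comparison. Benjamini-Hochberg adjustment ran over all genes tested, and a gene was called at an adjusted p under 0.05 with a log2 fold change of 1 or more in size. An exact permutation test of 3 against 3 cannot give a p below 0.1. The fit was also run on simulated counts, whose outcome is not reported here. Log2 CPM used a prior count of 2. Alternatives were RLE size factors, library totals, DESeq2 1.42.0, limma 3.58.1 with voom, no filter, a joint fit of all 9 libraries, a block on the replicate number, the adjusted p without a fold change limit, and leaving out each library in turn.

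The members and lists were chosen with earlier results of these data known. Named genes are the 7 members, genes of the pathway lists at an unadjusted p under 0.05 or up to 3 with the smallest p, up to 3 genes of each marker list, and the 10 most and 5 least alike to the members' mean pattern; 1 gene that this rule would name is not reported here. Of 12 hepatocyte markers 11 matched the table. Promoter windows came from RefSeq on GRCm38.p6, and overlaps with other genes from GENCODE. No label pairs libraries by number, and LFG mice were killed before the exosomes were given, so same-numbered libraries of these groups are different mice. Their deviations had r = 0.101, 0.308 and 0.180 across genes, against -0.176 to 0.033 for unlike numbers. Unlike numbers elsewhere reached 0.346 (REG 1 and LFG 2), so these values do not show pairs. The block on the replicate number rests on no known pairing. At 13837445 to 19840917 counts per library, precision is set by how libraries differ rather than by counting error, except for genes of very few counts. No pair of replicates agreed within sampling noise (chi-square per gene at least 27.04).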

Additional observations from a re-analysis of the deposited data

How the results depend on the processing

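For hADMSCs-Exo against REG, all 7 members stayed lower in each of the 13 alternatives fitted. The count of members at an unadjusted p under 0.05 (5) was 0 with all 9 libraries in one fit and 2 to 5 with a library left out, and that of the other sterol synthesis genes (6) was 1 and 4 to 10. For REG against LFG, all 7 stayed higher. Members past both thresholds (0) were 1 with voom, members at an unadjusted p (1) were 1 to 5 with a library left out, and the other sterol synthesis genes (6) were 2 to 9. The signs of hADMSCs-Exo against LFG depended on the setting. Its median (0.11) was -0.005 with library totals, -0.12 with voom and -0.093 to 0.59 with a library left out. Single members turned negative with library totals (Lss -0.037, Sqle -0.024, Dhcr7 -0.007, Hmgcs1 -0.005) and voom (Sqle -0.21, Lss -0.16, Dhcr7 -0.12, Idi1 -0.12), without LFG 1 (Hmgcs1 -0.33, Lss -0.24, Dhcr7 -0.14, Sqle -0.093), without LFG 3 (Sqle -0.042, Idi1 -0.001), without hADMSCs-Exo 2 (Dhcr7 -0.016) and without hADMSCs-Exo 3 (Hmgcs1 -0.21, Dhcr7 -0.004, Lss -0.001). With a library left out, the 5 members that turned negative reached at most 1.45 (Idi1), 0.59 (Sqle), 0.43 (Lss and Dhcr7) and 0.32 (Hmgcs1), and the other 2 stayed positive (Fdps 0.58 to 1.47, Insig1 0.22 to 1.00). Its members at an unadjusted p (0) were 0 to 2 and the other sterol synthesis genes (0) 0 to 3 with a library left out, and 1 of the latter with no filter. The cause of these shifts was not tested. With the replicate number as a block, members at an unadjusted p were 6 (hADMSCs-Exo against REG), 1 (hADMSCs-Exo against LFG, and 1 other sterol synthesis gene) and 3 (REG against LFG). Same-numbered libraries of hADMSCs-Exo and REG (r = 0.159, 0.00938 and 0.0336) and of REG and LFG (0.415, -0.202 and 0.305) share only a number. Those of hADMSCs-Exo and LFG likewise share no more than a number.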

Other observations

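Fatty acid synthesis genes, many of them SREBP1 targets, had a fitted log2 fold change below 0 for hADMSCs-Exo against REG in 12 of 15 cases, with a median of -0.73, and 8 were lower at an unadjusted p under 0.05 (4.69% of all genes). In alternatives added for this list after its values were seen, that count was 3 with all 9 libraries in one fit (1.26% of all genes), 5 with scaling by library totals, 4 without REG 2, and 2 without REG 3 or without hADMSCs-Exo 3. Acss2, an acetyl-CoA synthetase, had 314.2, 494.3 and 415.5 CPM in REG and 138.6, 225.6 and 159.5 CPM in hADMSCs-Exo, so its groups did not overlap. On the log2 scale it differed by -1.22 (standard error 0.23, adjusted p = 0.358, quasi-likelihood test of edgeR, Benjamini-Hochberg adjustment). The others were Pnpla3, a lipid droplet lipase (-1.69), Scd1, a desaturase (-1.29), Fasn, fatty acid synthase (-1.09), the acetyl-CoA carboxylases Acaca (-0.86) and Acacb (-0.73), Me1, malic enzyme (-0.76), and Elovl5, an elongase (-0.58). Their adjusted p lay between 0.407 and 0.495. Pnpla3 rested on few counts, 28 to 71 per library in REG and 1 to 22 in hADMSCs-Exo. In REG against LFG, 14 of 15 had a fitted log2 fold change above 0 (median 0.54), and Acss2 was the 1 at an unadjusted p under 0.05 (2.09, adjusted p = 0.320), its LFG libraries having 29.2, 128.9 and 130.9 CPM. The count of 1 was 3 without LFG 2 (2.94% of all genes were higher) or without REG 1 (3.03%). It was 4 without LFG 3 (18.2%). Against LFG, 6 were higher and 9 lower in hADMSCs-Exo (median -0.082).

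Markers of other cells were also summed in each library. Macrophage markers ran from 495.3 to 1475.9 CPM in REG and from 956.0 to 1166.1 CPM in hADMSCs-Exo, and lymphocyte markers from 36.9 to 64.7 and from 66.7 to 83.5 CPM, the latter without overlap. Cholangiocyte markers lay between 68.4 and 74.5 CPM in REG and between 53.1 and 128.0 CPM in hADMSCs-Exo, and sinusoidal endothelium markers between 78.6 and 225.1 and between 50.9 and 168.4 CPM. Erythroid markers ran from 186.0 to 883.5 and from 108.5 to 519.7 CPM. Adipocyte markers were low, at 3.4 to 30.1 CPM over the 9 libraries, with 1 to 3 of the 6 genes detected in a library.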
